A study of Mus musculus with 6 samples.

Results

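Mitral valve cells of 8-week-old K/B.g7 mice were compared with those of B.g7 mice of the same age, across fibroblasts, endothelium, mural cells and leukocytes. The members were the 9318 K/B.g7 and 5771 B.g7 barcodes of that age with 300 or more genes and no more than 10% of UMIs from mitochondrial genes (unique molecular identifiers, each counting 1 captured transcript). These 15089 cells were part of 53526 kept from 6 libraries, 1 for each genotype at 3, 8 and 25 weeks. K/B.g7 mice have a transgenic T cell receptor, KRN, and the g7 allele of the MHC class II molecule I-A, and they are labelled inflamed. B.g7 mice carry the g7 allele without the transgene and are labelled control, so both groups share the class II allele and the age.

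The valves of both genotypes went through enzymatic digestion (collagenase 2, DNAse) and lysis of red cells before live single cells were sorted for droplet capture. The number, sex and pooling of the mice in a library are not given in the labels. With 1 library per genotype there was no replicate, so no test between the genotypes was possible. Every interval below is an exact 95% interval that covers counting error only, and a difference between the libraries cannot be told apart from a difference between the mice or preparations.

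In K/B.g7 mice the transgenic T cells help B cells make autoantibodies against a widely expressed enzyme, and immune complexes then drive arthritis and inflammation of the heart valves. The mitral valve leaflet is a matrix-rich tissue of interstitial fibroblasts covered by a specialized endothelium, with few resident leukocytes. Interstitial fibroblasts secrete collagens and proteoglycans, and under cytokines they can also present antigen and release chemokines that recruit leukocytes.

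Depth was close in the 2 libraries. As deposited, the K/B.g7 library had 45002210 UMIs over 10120 barcodes and the B.g7 library 29876036 over 6262, and the kept cells had medians of 4094 and 4322 UMIs. The libraries shared 12 of the kept barcodes. Hemoglobin genes took 0.525% of the K/B.g7 UMIs and 0.00912% of the B.g7 UMIs. Trbv19, the variable segment of the beta chain of the KRN receptor, gave 140 UMIs in 104 cells of K/B.g7 and 46 UMIs in 41 cells of B.g7, beside 3847 and 2368 UMIs of the constant segments. As 3′ counting reads variable segments poorly and both libraries held this one, it checks the labels only weakly.

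The libraries also differed in their mixture of female and male cells. Xist, which is made from the inactive X of female cells, without any Y-linked UMI marked 4842 cells (52.0%) of K/B.g7 and 4837 cells (83.8%) of B.g7. Y-linked UMIs without Xist marked 1964 cells (21.1%) of K/B.g7 and 212 cells (3.67%) of B.g7. Among fibroblasts the Y-linked cells were 1560 of 6356 in K/B.g7 and 68 of 3264 in B.g7. Values within the Xist cells, in which the comparison is between cells of 1 sex, are therefore given beside results of each kind.

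Fibroblasts were the largest kind in both libraries, and endothelium set the libraries apart most. A cell was called a fibroblast where Dcn, Col1a1 and Col1a2, which encode decorin and the chains of type I collagen, made up at least 1% of its UMIs. Below 1%, endothelium had at least 2 UMIs of Pecam1 and Cdh5, mural cells at least 2 of Myh11 and Rgs5, and leukocytes at least 1 of Ptprc. Fibroblasts were 68.2% (67.3 to 69.2) of the K/B.g7 cells and 56.6% (55.3 to 57.8) of the B.g7 cells, a ratio of 1.21 (1.16 to 1.26). Endothelium was 5.33% (4.89 to 5.81, 497 cells) in K/B.g7 and 19.3% (18.3 to 20.4, 1115 cells) in B.g7, a ratio of 0.276 (0.248 to 0.307).

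The endothelial share of B.g7 at 8 weeks stood apart from the other libraries. In K/B.g7 endothelium was 5.29%, 5.33% and 4.95% of the cells at 3, 8 and 25 weeks, and in B.g7 it was 3.84%, 19.3% and 3.43%. The ratio of the endothelial shares at 8 weeks thus rests on the B.g7 library, and what set its share was not tested.

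Mural cells, the smooth muscle cells and pericytes of vessels, were 2.55% (238 cells) in K/B.g7 and 1.66% (96 cells) in B.g7, a ratio of 1.54 (1.21 to 1.97). Leukocytes were 6.68% (6.18 to 7.20, 622 cells) in K/B.g7 and 4.21% (3.71 to 4.76, 243 cells) in B.g7, a ratio of 1.59 (1.36 to 1.85). A further 35 and 16 cells met the rules of several kinds, and 1642 (17.6%) and 1069 (18.5%) met none. In the cells that met none, at least 2 UMIs of mesothelial markers were seen in 3.78% of K/B.g7 and 22.2% of B.g7. At least 2 UMIs of leukocyte markers other than Ptprc were seen in 15.0% and 7.58% of them. Shares are parts of what the digestion and the sort let through, so more of 1 kind and fewer of another cannot be told apart.

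**Figure D1:**
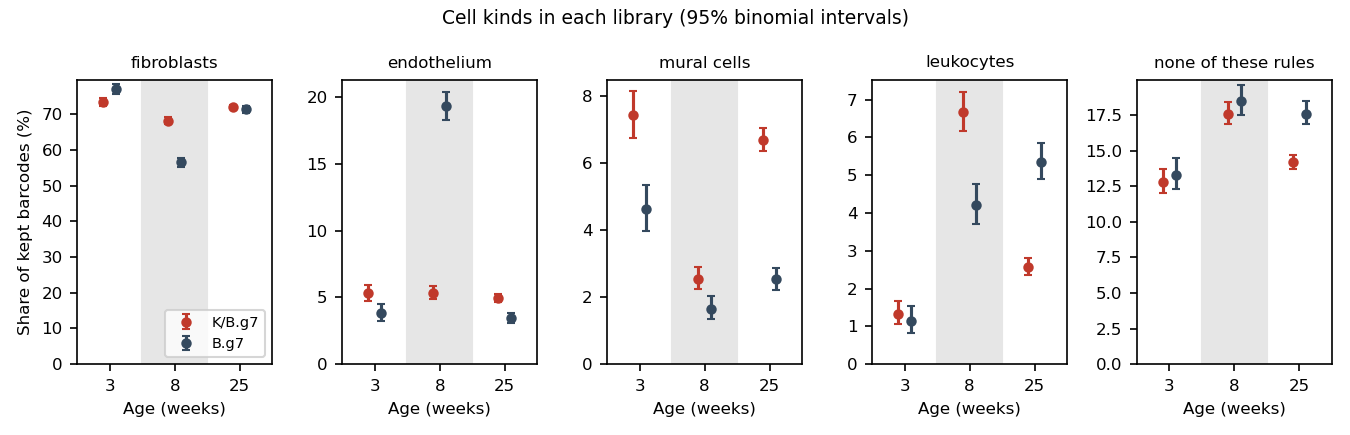
Share of the kept barcodes in each kind, in percent with exact binomial 95% intervals, against age in weeks, for K/B.g7 and B.g7 (1 library per point, 8 weeks shaded). At 8 weeks the endothelial share was 5.33% for K/B.g7 against 19.3% for B.g7, which was the highest of the 6 libraries.

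Within the Xist cells the shares kept their order, and within the Y-linked cells the leukocyte shares did not. In the Xist cells fibroblasts were 65.0% (K/B.g7) and 59.0% (B.g7), endothelium 6.48% and 19.8%, mural cells 2.15% and 1.61%, and leukocytes 7.52% and 3.39%. The ratio of leukocyte shares was 2.22 in these cells. In the Y-linked cells (1964 and 212) fibroblasts were 79.4% and 32.1%, endothelium 3.51% and 22.6%, mural cells 2.9% and 1.9%, and leukocytes 5.30% (4.35 to 6.38) and 17.9% (13 to 23.8). The ratio of fibroblast shares was 1.10 in the Xist cells. With a fibroblast rule of 2% in place of 1% the shares were 21.2% and 19.7%, a ratio of 1.08.

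The fibroblasts of K/B.g7 held more transcripts of inflammatory and antigen-presenting genes. At least 20 UMIs and 20 CPM (counts per 1e6 UMIs summed over the cells of a kind) were reached by 6013 genes. Of these, 160 genes (2.66%) were over 2-fold higher in K/B.g7 and 75 genes (1.25%) over 2-fold lower, against a median log2 ratio of 0.11 over all genes. The interval of the ratio lay wholly beyond 2-fold for 130 and 52 of them. At 3 weeks the same counts in fibroblasts were 53 (0.885%) and 24 (0.401%) of 5986 genes, and at 25 weeks 100 (1.62%) and 63 (1.02%) of 6182.

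Hp, Mmp3 and Lcn2 had the largest ratios of the genes with at least 50 CPM, once hemoglobin and immunoglobulin genes were set aside (Hba-a1, for example, was at 484 and 10.3 CPM). Hp, which encodes the hemoglobin-binding acute-phase protein haptoglobin (mm10 chr8:109575128-109579172), was at 148 CPM in K/B.g7 and 0.440 CPM in B.g7, a ratio of 336 (163 to 835). It was seen in 7.96% of K/B.g7 fibroblasts and 0.123% of B.g7 fibroblasts. Mmp3, the matrix metalloproteinase stromelysin (chr9:7445822-7455975), was at 1115 and 63.8 CPM, a ratio of 17.5 (16.4 to 18.6). Lcn2, an iron-siderophore-binding lipocalin of innate defence (chr2:32384633-32388252), was at 569.8 and 33.2 CPM, a ratio of 17.2 (15.7 to 18.7). All these transcripts came from a minority of cells. Mmp3 was seen in 17.1% and 3.62% of the fibroblasts, and Lcn2 in 14.4% and 1.01%. In B.g7 1 cell held 35.6% of the Mmp3 UMIs and 1 cell 27.4% of the Lcn2 UMIs. The intervals of these ratios do not cover such differences between cells. In leukocytes, which are not known as a main source of Mmp3, it was seen in 9.32% of K/B.g7 and 0.412% of B.g7 cells at medians of 4158 and 3743 UMIs, against 4348 and 4860.5 UMIs in fibroblasts.

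Several chemokines were among the named genes. Cxcl14, a chemokine of stromal and epithelial cells, was at 718 CPM in K/B.g7 and 71.5 CPM in B.g7, a ratio of 10.0. Cxcl9, an interferon-gamma-induced ligand of CXCR3, was at 69.2 and 8.16 CPM, a ratio of 8.48, and came from 3.01% and 0.827% of the cells. Cxcl2, a neutrophil attractant, was at 221 and 28.5 CPM, a ratio of 7.76, and Ccl5, which draws T cells, at 83.1 and 11.1 CPM, a ratio of 7.47. In leukocytes Cxcl2 was at 1792 and 2051 CPM and Ccl5 at 1912 and 4188 CPM. Leukocyte markers summed to 52.6 and 13.8 CPM in the fibroblasts, and their part in these levels was not tested. Without predicted doublets the ratio of Ccl5 was 16.4, and 1 cell held 19.1% of its K/B.g7 UMIs. Other named genes were Chl1 (a cell adhesion molecule), Spp1 (osteopontin), Chil1 (a chitinase-like glycoprotein), C7 (a terminal complement component) and Ifi205 (an interferon-activated gene). Their ratios were 14.7, 12.3, 11.4, 9.92 and 9.32.

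The genes lower in K/B.g7 included targets and inhibitors of BMP signalling. Igfbp3, a binding protein of insulin-like growth factors (chr11:7206086-7213923), was at 93.7 CPM in K/B.g7 and 1125 CPM in B.g7, a ratio of 0.0832 (0.0800 to 0.0866). It was seen in 14.6% of K/B.g7 fibroblasts and 54.1% of B.g7 fibroblasts. Smad6, an inhibitory Smad that BMP signals induce (chr9:63953076-64022059), was at 7.38 and 70.1 CPM, a ratio of 0.105. Id1, a BMP-induced inhibitor of transcription factors, was at 30.4 and 105 CPM, a ratio of 0.290. Sfrp2, a secreted Wnt modulator, was at 49.9 and 181 CPM, a ratio of 0.276. Apoe, the lipid carrier apolipoprotein E (chr7:19696109-19699188), was at 6244 and 18518 CPM, a ratio of 0.337, although it was seen in 93.8% and 94.6% of the cells. The remaining named genes, Cox4i2, Hmcn1, Gng8, Rtn1, Cdo1, Cyp2e1 and Cntfr, had ratios from 0.291 to 0.340.

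**Figure D2:**
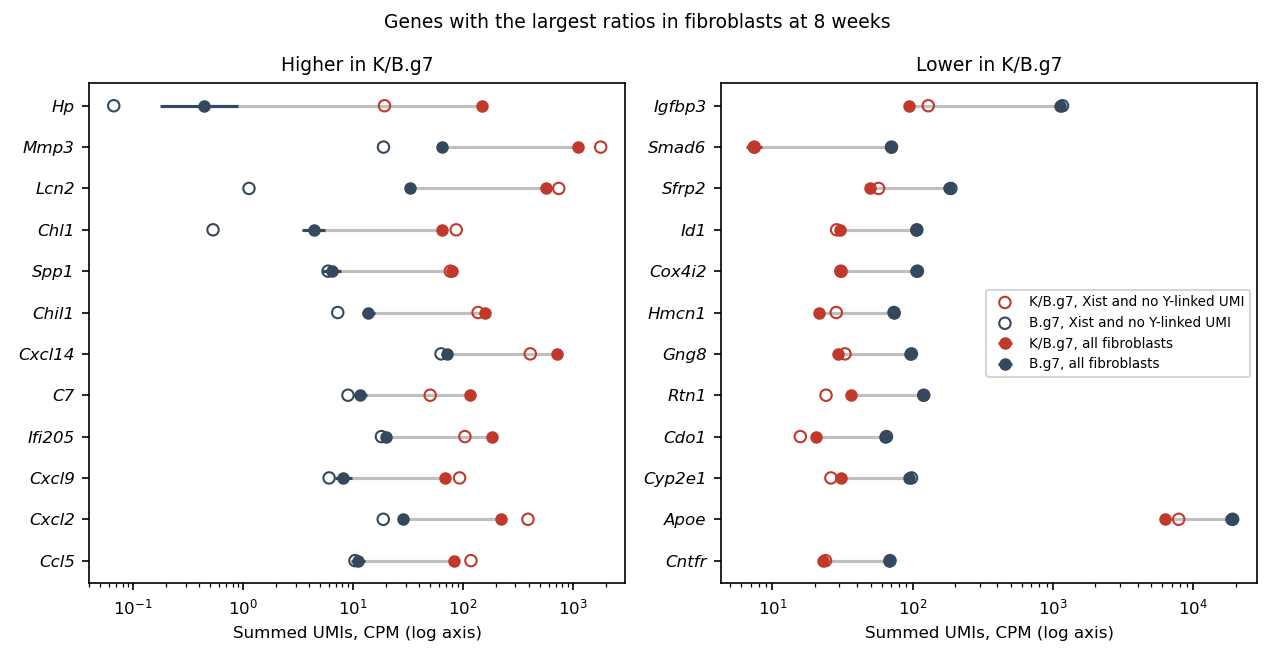
Level in CPM (log axis) of the named genes, higher or lower in K/B.g7, in all fibroblasts (filled points, exact Poisson 95% intervals) and in fibroblasts with Xist and no Y-linked UMI (open points) at 8 weeks. Over all fibroblasts Hp stood at 148 and 0.440 CPM and Igfbp3 at 93.7 and 1125 CPM.

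At the other ages the same genes did not keep these sizes. At 3 and 25 weeks the ratio of Mmp3 between the genotypes was 2.28 and 1.01, that of Cxcl14 was 0.906 and 1.97, and that of Igfbp3 was 0.870 and 0.290. Lcn2 was at a ratio of 0.597 at 25 weeks and Hp at 0.146. Each of these values again compares 1 library with 1 library, and the difference between ages was not tested.

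The few Y-linked fibroblasts of B.g7 carried most of that library's fibroblast UMIs of Lcn2, Mmp3 and Chl1. Lcn2 was seen in 13.1% of Xist and 17.3% of Y-linked fibroblasts of K/B.g7. In B.g7 it was seen in 0.526% of Xist fibroblasts and in 11 of 68 Y-linked fibroblasts (16.2%, 8.36 to 27.1). These 68 cells held 62.0% of the Lcn2 UMIs, 69.6% of the Mmp3 UMIs and 87.1% of the Chl1 UMIs of all B.g7 fibroblasts. The origin of these cells was not tested.

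Igfbp3, Cd74 and Hp also split by sex transcripts. Igfbp3 was seen in 18.4% of Xist and 8.33% of Y-linked fibroblasts of K/B.g7, and in 59.7% and 19.1% of those of B.g7. Cd74, the invariant chain of MHC class II, was seen in 20.8% and 14.2% in K/B.g7 and in 4.24% and 19.1% in B.g7. Hp was seen in 2.76% of Xist and 14.8% of Y-linked fibroblasts of K/B.g7. Within the Xist fibroblasts the ratio of K/B.g7 to B.g7 was therefore larger for Lcn2 (657), Mmp3 (94.6) and Chl1 (163). These B.g7 cells held 17 UMIs of Lcn2, 284 of Mmp3 and 8 of Chl1. The sizes for Lcn2 and Chl1 thus rest on few UMIs. The ratio was smaller for Cxcl14 (6.48), C7 (5.59) and Ifi205 (5.74), which were more frequent in the Y-linked cells of K/B.g7. All 12 named genes higher in K/B.g7 stayed over 2-fold higher there, and Igfbp3, Smad6 and Apoe stayed lower at 0.110, 0.105 and 0.413.

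**Figure D3:**
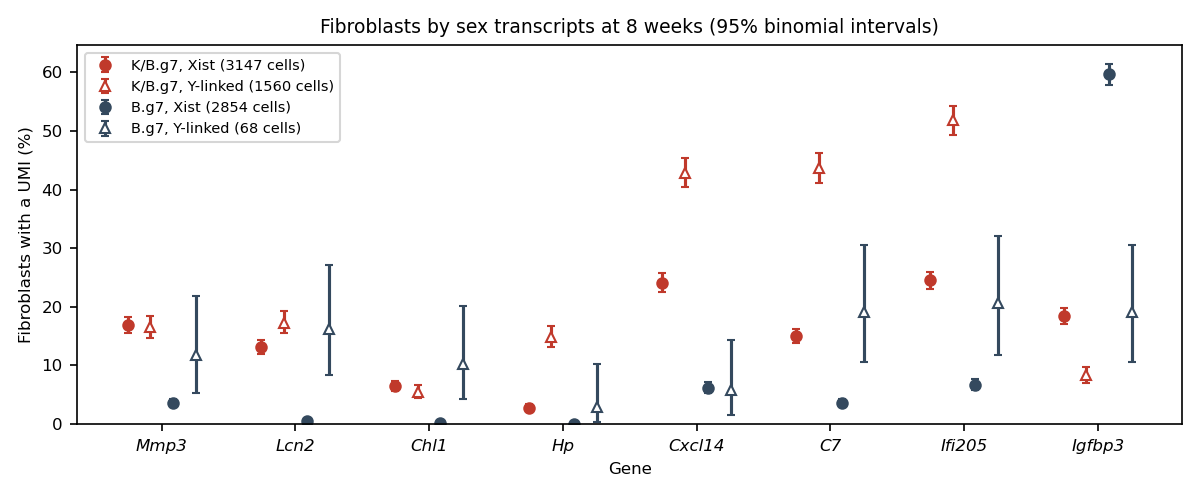
Share of fibroblasts with a UMI of each gene, in percent with exact binomial 95% intervals, split into cells with Xist and cells with Y-linked transcripts in K/B.g7 and B.g7 at 8 weeks. For Lcn2 the 4 shares were 13.1% and 17.3% in K/B.g7 and 0.526% and 16.2% in B.g7.

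The libraries differed in the makeup of their fibroblasts as well. Pi16, a peptidase inhibitor that marks adventitial fibroblasts, was seen in 73.9% (72.8 to 75.0) of K/B.g7 and 41.8% (40.1 to 43.5) of B.g7 fibroblasts. After each cell was thinned to 1000 UMIs the shares were 49.4% and 20.6%, with 286 and 374 shallower cells left out. Smoc2, a matrix-associated calcium-binding protein, was seen in 63.4% and 42.0%, and Dpp4, a membrane peptidase, in 4.55% and 1.38%. Cilp, a cartilage-layer protein, was seen in 15.2% and 7.02%, and Chad, the cartilage proteoglycan chondroadherin, in 3.62% and 1.72%. These 5 genes were all more frequent in K/B.g7 after thinning too.

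In the other direction, Wif1, a secreted Wnt inhibitor, was seen in 12.6% (11.8 to 13.4) of K/B.g7 and 19.5% (18.1 to 20.9) of B.g7 fibroblasts. Tcf21, a transcription factor of fibroblast progenitors, was seen in 64.4% and 68.3%, or 28.6% and 40.9% after thinning. Lpl, a lipase, and Col15a1, a basement-membrane collagen, were again more frequent in K/B.g7, in 58.3% and 48.4% and in 66.5% and 56.6%. A ratio over all fibroblasts therefore mixes levels within these cells with their proportions.

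**Figure D4:**
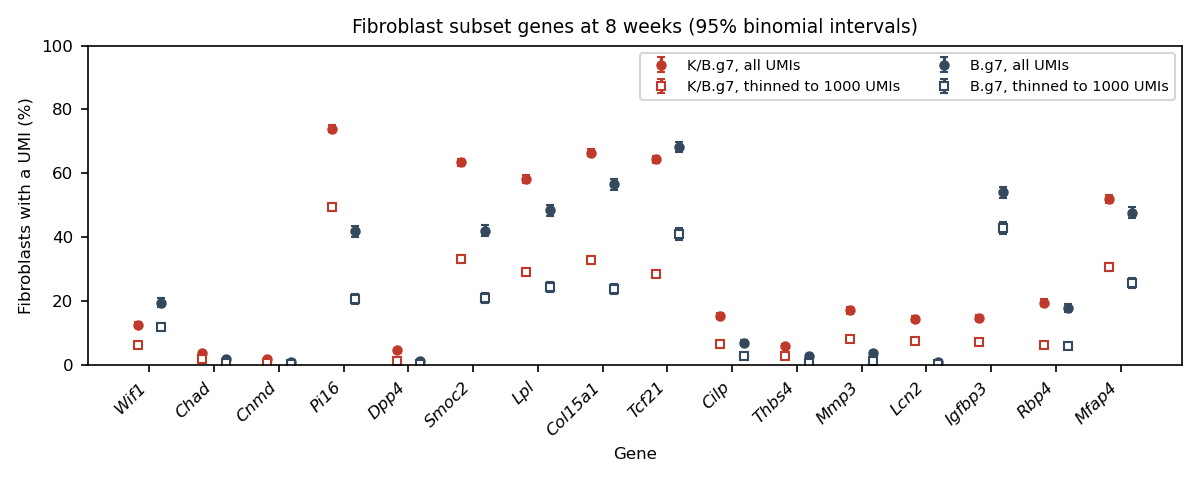
Share of fibroblasts with a UMI of each subset gene, in percent with exact binomial 95% intervals, in K/B.g7 and B.g7 at 8 weeks, with all UMIs (circles) and with each cell thinned to 1000 UMIs (squares). After thinning Pi16 was seen in 49.4% and 20.6% of the cells and Igfbp3 in 7.27% and 42.8%.

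Ratios were therefore also taken within cells that had a Wif1 UMI (799 cells of K/B.g7, 635 of B.g7) and within cells that had a Pi16 UMI (4697 and 1365). Mmp3 was higher in K/B.g7 in both, with ratios of 47.6 in Wif1 cells and 7.66 in Pi16 cells, as was Lcn2 with 79.5 and 12.2. Hp was at 46.5 CPM in K/B.g7 and 0.510 CPM in B.g7 in Wif1 cells, and at 165 and 0 CPM in Pi16 cells. Igfbp3 was lower in both, at 0.220 and 0.0948. Sfrp2 was at 1.19 in Wif1 cells and 0.411 in Pi16 cells, so its lower level over all fibroblasts was not seen in the Wif1 cells.

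MHC class II genes, whose products present peptides to CD4+ T cells, were higher in K/B.g7 fibroblasts. Of 12 genes of the list, 4 were measured and all 4 were over 2-fold higher, beside the 2.66% of all genes. Cd74 was at 309 CPM in K/B.g7 and 65.7 CPM in B.g7, a ratio of 4.71 (4.42 to 5.02). H2-Aa, H2-Ab1 and H2-Eb1, the chains of the class II molecules, had ratios of 3.72, 3.39 and 3.00. The leukocyte markers that sum to 52.6 and 13.8 CPM in these fibroblasts moved in the same direction, with none of the 6 markers at 0 in either library. At least 2 leukocyte UMIs were in 2.33% and 0.460% of the fibroblasts. Their part in the class II levels was not tested. Without predicted doublets the ratio of Cd74 was 6.14, and within the Xist cells it was 13.5.

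MHC class I genes and the immunoproteasome, which present cytosolic peptides to CD8+ T cells, were shifted as a group. All 16 of 17 genes that were measured had a ratio above 1, with a median log2 ratio of 0.84 beside 0.11 for all genes. Over 2-fold higher were 3 of them, beside 2.66% of all genes. H2-K1 was at 1287 CPM in K/B.g7 and 628 CPM in B.g7, a ratio of 2.05, and H2-D1 at 1728 and 997 CPM, a ratio of 1.73. H2-Q6 was at 69.8 and 18.4 CPM, a ratio of 3.79, though reads of the H2-Q genes are shared between near-identical copies. The immunoproteasome subunits Psmb8 and Psmb9 had ratios of 1.83 and 1.89.

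Genes of the interferon-gamma response were mostly higher in K/B.g7, with Irf1, Irf8 and Socs1 as exceptions. Of 24 genes, 17 were measured, and their median log2 ratio was 0.95 beside 0.11 for all genes. Over 2-fold higher were 7, beside 2.66% of all genes, and none was over 2-fold lower, beside 1.25%. Cxcl10, a further CXCR3 ligand, was at 146 CPM in K/B.g7 and 43.3 CPM in B.g7, a ratio of 3.38 (3.12 to 3.67). Iigp1, an immunity-related GTPase that acts on vacuoles of intracellular pathogens, was at 153 and 45.7 CPM, a ratio of 3.36. The guanylate-binding protein Gbp4 and the GTPase Igtp had ratios of 3.08 and 2.76. The transcription factors Irf1 and Irf8 had ratios of 0.972 and 0.920, and Socs1, a feedback inhibitor of cytokine signals, 0.922. In the type I interferon list all 10 measured of 20 genes had a ratio above 1 (median log2 ratio 0.62), and 1 of them, Ifit1, was over 2-fold higher, at 25.8 and 11.1 CPM.

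To show the sequence upstream of interferon-gamma genes that were higher together, the 250 bases before the start site are given for the 3 of 5 named members with an entry (RefSeq, GRCm38.p6). Each is written 5′ to 3′ on the strand of the gene. Capitals mark matches, on either strand, to TTCNNNGAA (the GAS motif bound by STAT dimers) or GAAANNGAAA (the ISRE motif bound by interferon regulatory factors and their complexes). Over 32851 promoter windows of this length, 7.02% held the GAS letters and 2.98% the ISRE letters. Cxcl9 lies at chr5:92328080-92328329 (minus strand), Cxcl10 at chr5:92348890-92349139 (minus strand) and Igtp at chr11:58199306-58199555 (plus strand).
Cxcl9: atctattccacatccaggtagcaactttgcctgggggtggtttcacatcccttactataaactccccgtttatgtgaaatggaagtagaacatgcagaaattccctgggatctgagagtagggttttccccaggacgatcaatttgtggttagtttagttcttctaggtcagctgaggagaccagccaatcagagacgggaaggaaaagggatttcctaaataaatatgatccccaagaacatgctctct
Cxcl10: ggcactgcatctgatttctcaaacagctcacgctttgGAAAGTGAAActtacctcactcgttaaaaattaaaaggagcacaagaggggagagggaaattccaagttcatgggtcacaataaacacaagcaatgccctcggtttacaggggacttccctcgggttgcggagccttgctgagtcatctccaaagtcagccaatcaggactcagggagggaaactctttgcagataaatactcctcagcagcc
Igtp: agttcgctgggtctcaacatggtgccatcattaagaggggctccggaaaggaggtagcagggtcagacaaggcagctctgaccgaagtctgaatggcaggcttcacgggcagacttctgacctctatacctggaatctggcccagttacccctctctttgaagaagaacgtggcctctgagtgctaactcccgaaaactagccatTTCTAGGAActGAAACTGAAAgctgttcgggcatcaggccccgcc
The Cxcl10 window held 1 ISRE match, 213 bases before the start. The Igtp window held 1 GAS match 45 bases before the start and 1 ISRE match 34 bases before it, which do not overlap. The Cxcl9 window held neither set of letters. A match describes the letters and not a bound site.

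Complement genes were higher in K/B.g7 fibroblasts with the regulator Cd59a as the exception. Of 19 genes, 10 were measured, 9 had a ratio above 1, and the median log2 ratio was 1.17 beside 0.11 for all genes. Over 2-fold higher were 5, beside 2.66% of all genes. C3, the central component of the cascade, was at 1238 CPM in K/B.g7 and 383 CPM in B.g7, a ratio of 3.23 (3.14 to 3.32), and it was seen in 78.3% and 34.3% of the fibroblasts. C4b, of the classical pathway, was at 368 and 122 CPM, a ratio of 3.03. Cfb, of the alternative pathway, was at 26.7 and 4.90 CPM, a ratio of 5.44. Cd55, a surface inhibitor of the convertases, was at 259 and 79.6 CPM, a ratio of 3.25. The soluble inhibitor Serping1 had a ratio of 1.36, and Cd59a, which blocks the membrane attack complex, was at 57.1 and 80.2 CPM, a ratio of 0.712.

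The chemokines had the largest shift of the lists described here for fibroblasts after MHC class II. Of 23 genes, 16 were measured, 15 had a ratio above 1, and the median log2 ratio was 1.75 beside 0.11 for all genes. Over 2-fold higher were 13, beside 2.66% of all genes. Ccl11, an eosinophil attractant, was at 177 CPM in K/B.g7 and 33.0 CPM in B.g7, a ratio of 5.36. The monocyte attractants Ccl7 and Ccl2 were at 539 and 169.6 CPM and at 469 and 179.8 CPM, ratios of 3.18 and 2.61. Ccl21a, a ligand of CCR7 that lymphatic vessels secrete, was at 29.4 and 1.88 CPM, a ratio of 15.6. Lymphatic endothelial markers were also higher in these fibroblasts, at 47.0 and 13.6 CPM in sum, and their part in the Ccl21a level was not tested. Cxcl1, a neutrophil attractant, was the exception at 1255 and 1291 CPM, a ratio of 0.972. Cxcl13, a B cell attractant, was at 41.5 and 7.22 CPM, from 1.23% of K/B.g7 and 0.0613% of B.g7 fibroblasts.

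Of 30 cytokines and inflammatory mediators, 15 were measured, with a median log2 ratio of 0.73 beside 0.11 for all genes. Over 2-fold higher were 7, beside 2.66% of all genes, and none was over 2-fold lower, beside 1.25%. Saa3, an acute-phase serum amyloid, was at 120.4 CPM in K/B.g7 and 20.2 CPM in B.g7, a ratio of 5.97. Lif, a cytokine that signals through gp130, was at 20.3 and 3.52 CPM, a ratio of 5.77. Il1b was at 30.9 and 5.02 CPM, a ratio of 6.15, from 3.67% and 0.460% of the cells. It is chiefly a myeloid transcript, and monocyte or neutrophil markers were at 42.3 and 15.7 CPM in these fibroblasts. Il6 was at 153 and 125 CPM, a ratio of 1.22, and Tslp, an epithelial and stromal cytokine, was at 39.3 and 52.1 CPM, a ratio of 0.753.

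Most matrix genes were a little higher in K/B.g7, with few past 2-fold, beside 2.66% of all genes over 2-fold higher. Of 15 measured collagens 14 had a ratio above 1, with a median log2 ratio of 0.43 beside 0.11 for all genes (0.53 in Wif1 cells and 0.23 in Pi16 cells). The collagen over 2-fold higher was Col8a1, with 190.0 CPM in K/B.g7 and 85.2 CPM in B.g7, while Col1a1 was at 1105 and 1046 CPM, a ratio of 1.06. Of 27 measured proteoglycans and glycoproteins 19 had a ratio above 1, with a median log2 ratio of 0.38, and 3 were over 2-fold higher: fibronectin (Fn1, 2.31), Cilp (2.16) and thrombospondin Thbs4 (2.14). Fbln1, the matrix protein fibulin, was lower at 1422 and 2169 CPM, a ratio of 0.656. Of 14 measured proteases and inhibitors 3 were over 2-fold higher. These were Mmp3, Adamts5, an aggrecan-cleaving protease (457 and 132 CPM, a ratio of 3.46), and Timp1, an inhibitor of metalloproteinases (1199 and 197 CPM, a ratio of 6.08). Timp3, a further inhibitor, was at 846 and 1178 CPM, a ratio of 0.718.

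Of 18 measured myofibroblast and TGF-beta genes 4 were over 2-fold higher, beside 2.66% of all genes. The median log2 ratio was 0.42 beside 0.11 for all genes. Lox, a collagen cross-linking enzyme, was at 47.4 CPM in K/B.g7 and 11.2 CPM in B.g7, a ratio of 4.24. Acta2, smooth muscle actin, was at 85.4 and 32.0 CPM, a ratio of 2.67. Inhba, a subunit of activin, and Ltbp2, a latent TGF-beta-binding protein, had ratios of 2.63 and 2.43. Myl9, a myosin light chain, was at 35.7 and 53.3 CPM, a ratio of 0.671.

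The Wnt and BMP list was the only one of those named for fibroblasts with more members over 2-fold lower than higher. Of 13 measured genes 5 were over 2-fold lower and 2 over 2-fold higher, beside 1.25% and 2.66% of all genes, and the median log2 ratio was -0.39. Within the Xist cells 4 of 11 measured genes were over 2-fold lower, and in Wif1 cells none of 13. Id3 and Id2, of the same family as Id1, were at 795 and 1871 CPM and at 142 and 305 CPM, ratios of 0.425 and 0.465. Wif1 was at 157 and 324 CPM, a ratio of 0.485. Bmp6, a BMP ligand, was at 22.1 and 10.0 CPM, a ratio of 2.20, and Nkd2, an intracellular Wnt antagonist, at 22.9 and 11.2 CPM, a ratio of 2.04. Id1, Smad6 and Sfrp2, given above, belong to BMP or Wnt signalling as well. Smad6 is not among the counted members. In Wif1 cells it was at 13.1 CPM in K/B.g7 and 27.0 CPM in B.g7, a ratio of 0.485.

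Genes that respond to cell handling were not over 2-fold apart in the fibroblasts, where 2.66% of all genes were over 2-fold higher and 1.25% lower. None of the 25 immediate early and heat shock genes was over 2-fold higher or lower, 5 of them had a ratio above 1, and the median log2 ratio was -0.32. Fos and Hspa1a were at 3087 and 3932 CPM and at 3767 and 6634 CPM in K/B.g7 and B.g7. None of 13 measured hypoxia and glycolysis genes and none of 4 measured proliferation genes was over 2-fold apart. Beside such small shares over all genes, no member past 2-fold in lists of this length says little about the lists. Of 6 measured genes of the chondrogenic list, Spp1 (79.0 and 6.41 CPM) and Chad (42.1 and 17.1 CPM) were over 2-fold higher. Cytl1, a cytokine-like protein of cartilage, was over 2-fold lower, at 249 and 606 CPM. Gstp1 and Gstp2, glutathione transferases, were at ratios of 2.85 and 5.59, but they are near-identical copies whose reads cannot be fully separated. Red cell markers were at 1919 CPM in K/B.g7 fibroblasts and 39.6 CPM in B.g7 fibroblasts, and their part in these results was not tested.

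The immune lists differed more between the libraries in Wif1 cells than in Pi16 cells. In Wif1 cells the median log2 ratio was 1.83 for MHC class I, 2.01 for interferon-gamma response, 2.81 for chemokines and 1.76 for complement. In Pi16 cells it was 0.67, 0.52, 1.14 and 0.95. Within the Xist fibroblasts it was 0.92, 1.41, 2.45 and 1.06. At 25 weeks, over all fibroblasts, the same medians were -0.24, -0.39, -0.25 and -0.22, and at 3 weeks they were 0.00, -0.31, 0.21 and 0.08. At these ages the libraries thus did not show the shift of 8 weeks, and the difference between ages was not tested.

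**Figure D5:**
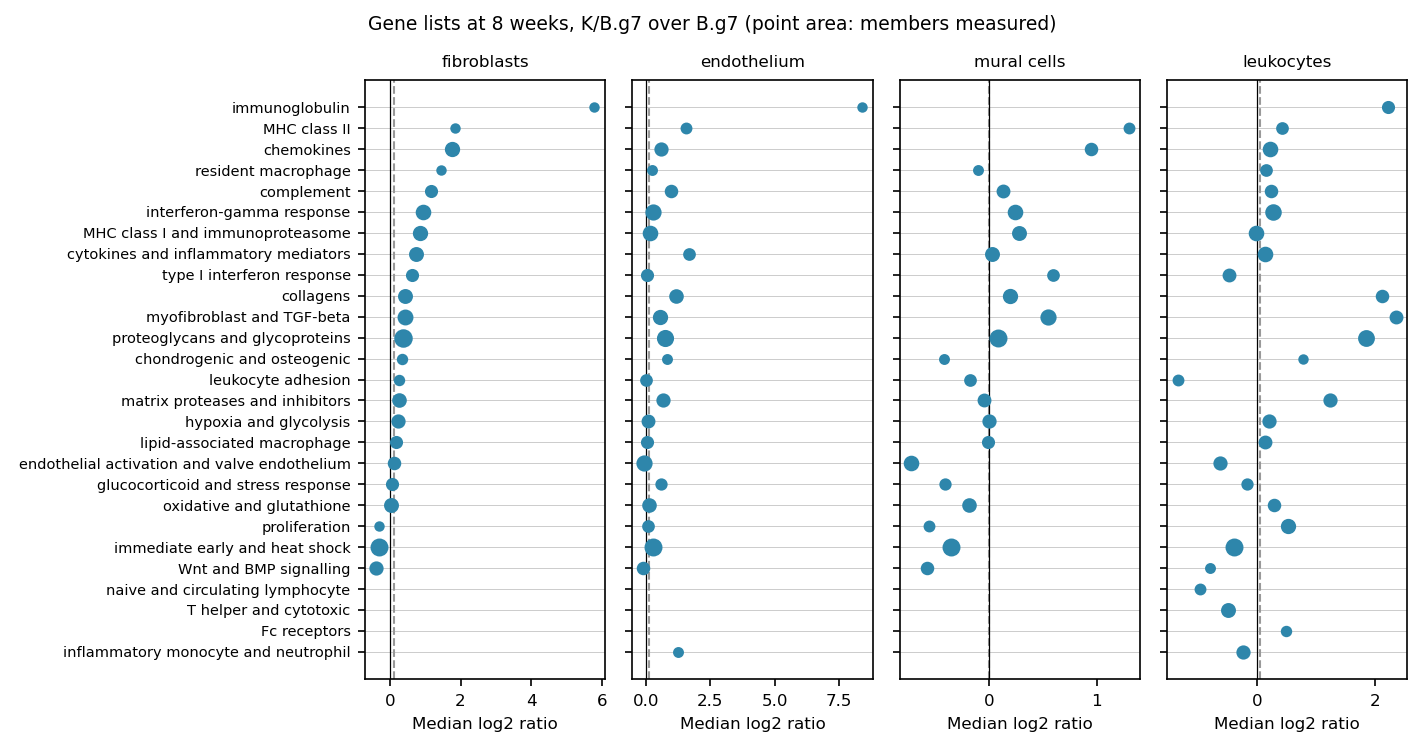
Median log2 ratio of K/B.g7 over B.g7 at 8 weeks for each gene list in fibroblasts, endothelium, mural cells and leukocytes with at least 4 measured members (1 library per genotype). Point area stands for the number measured, the dashed line for the median of all genes, and in fibroblasts the chemokine median was 1.75 and the Wnt and BMP median -0.39.

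Endothelium held 386 genes (5.67% of 6812) over 2-fold higher in K/B.g7 and 108 genes (1.59%) over 2-fold lower. RNA released by other cells can enter a droplet, so levels were set beside those in fibroblasts. Of 159 genes that were higher at 50 CPM or more, 90 had a level in endothelium at least as high as in fibroblasts, as did 61 of 66 that were lower. Endothelium with at least 2 UMIs of lymphatic genes (Prox1, Mmrn1, Ccl21a and Reln) was 27.4% (136 cells) of K/B.g7 and 11.1% (124 cells) of B.g7 endothelium. The other endothelium was 361 cells in K/B.g7 and 991 cells in B.g7. Taken over all kept cells, those with lymphatic genes were 1.46% of the K/B.g7 library and 2.15% of the B.g7 library, in the opposite order. With a longer list that adds Lyve1 and Flt4, the endothelial shares were 39.0% (34.7 to 43.5) and 35.6% (32.8 to 38.5). After thinning these were 23.3% (19.6 to 27.4) and 10.2% (8.49 to 12.2). The order of the lymphatic shares thus depended on what they were taken over.

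Npr3, Vwf, H19 and Postn were lower in K/B.g7 endothelium, though the list of endothelial activation and valve endothelium was not shifted as a whole. Of its 19 measured genes 2 were over 2-fold higher and 4 over 2-fold lower, beside 5.67% and 1.59% of all genes. The median log2 ratio was -0.09. Without the lymphatic cells 4 of 20 were higher and 3 lower, with a median of 0.12. Npr3, a natriuretic peptide receptor of endocardial and valvular endothelium, was at 618 CPM in K/B.g7 and 1657 CPM in B.g7, a ratio of 0.373 (0.353 to 0.394), and was seen in 45.3% and 86.6% of the cells. Vwf, von Willebrand factor, was at 414 and 1143 CPM, a ratio of 0.362. H19, an imprinted noncoding RNA, was at 273 and 798 CPM, a ratio of 0.343, and Postn, the matrix protein periostin, at 180.3 and 375 CPM, a ratio of 0.481. In endothelium without lymphatic genes the ratios of Npr3, Vwf, H19 and Postn were 0.477, 0.451, 0.391 and 0.531, and in Xist endothelium (314 and 956 cells) 0.453, 0.407, 0.360 and 0.345. Conversely Cldn5, the tight-junction claudin of vessels, was at 365 and 102 CPM, a ratio of 3.58, and the fatty acid transporter Cd36 of capillaries at 50.5 and 21.0 CPM, a ratio of 2.40. These 2 ratios are over all endothelium, of which cells with lymphatic genes were 27.4% and 11.1%. The part of the lymphatic cells in them was not tested.

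The genes with the lowest ratios included several metabolic enzymes. Adh6b, an alcohol dehydrogenase (chr3:138341775-138358861), was at 8.14 CPM in K/B.g7 and 136 CPM in B.g7, a ratio of 0.0597 (0.0363 to 0.0930), and was seen in 1.81% and 27.2% of the cells. Adh1, a further alcohol dehydrogenase, was at 5.70 and 63.8 CPM, and Dpp4 at 6.10 and 74.7 CPM. Cd300lg, a surface glycoprotein of capillary and venular endothelium, was at 35.8 and 271 CPM, a ratio of 0.132, from 11.9% and 53.5% of the cells. Hamp, the iron-regulating hormone hepcidin, was at 59.8 and 396 CPM, a ratio of 0.151. Pla2g7 and Abcc9 had ratios of 0.147 and 0.179. Fxyd3 was at 4.48 and 57.2 CPM, a ratio of 0.0782, and 1 cell held 31.3% of its B.g7 UMIs. Mesothelial markers were at 36.6 CPM in K/B.g7 endothelium and 166 CPM in B.g7 endothelium, with none of the 7 at 0, and their part in the Fxyd3 level was not tested. Without lymphatic genes the ratios of Adh6b, Dpp4, Cd300lg and Hamp were 0.0890, 0.0892, 0.0806 and 0.0534, and in Xist endothelium they were 0.0846, 0.0328, 0.116 and 0.0684.

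Higher in K/B.g7 endothelium were Nppc, the C-type natriuretic peptide, at 196 and 7.01 CPM (25 and 9 cells), and the metalloproteinase Adamts8 at 76.1 and 2.34 CPM (26 and 12 cells). In K/B.g7 1 cell held 42.1% of the Nppc UMIs and 1 cell 31.6% of the Adamts8 UMIs. In Xist endothelium Nppc was at 22.3 and 0 CPM and Adamts8 at 7.86 and 1.61 CPM, so most of the K/B.g7 level of both came from other cells. Cmah, a sialic acid hydroxylase, was at 63.1 and 8.56 CPM, a ratio of 7.36. Jchain and Slpi rested on 1 cell, which held 91.8% and 92.8% of their K/B.g7 UMIs. Il1b, Fcer1g and Lyz2, which myeloid cells express, were among the named genes too. Leukocyte markers summed to 199.8 CPM in K/B.g7 endothelium and 24.7 CPM in B.g7 endothelium, with none of the 6 markers at 0, and their part in these values was not tested.

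Of 9 measured cytokines and inflammatory mediators 5 were over 2-fold higher in K/B.g7 endothelium, beside 5.67% of all genes. The median log2 ratio was 1.68. Inhba was at 325 and 46.5 CPM, a ratio of 6.99, and at 12.4 in endothelium without lymphatic genes. Lcn2 was at 258 and 36.6 CPM, a ratio of 7.05, from 24.5% and 3.77% of the cells, and Timp1 at 192 and 31.5 CPM, a ratio of 6.10. In Xist endothelium the ratios of Inhba, Lcn2 and Timp1 were 9.05, 8.21 and 9.03. In fibroblasts Lcn2 was at 569.8 and 33.2 CPM and Timp1 at 1199 and 197 CPM. Fibroblast markers summed to 7006 and 6758 CPM in endothelium, against 26962 and 28284 CPM in fibroblasts, and their part in these levels was not tested. MHC class II had 5 of 7 measured genes over 2-fold higher, with Cd74 at 606 and 158 CPM, a ratio of 3.84, although 1 cell held 30.6% of its K/B.g7 UMIs. Vcam1, Icam1 and Sele, which capture leukocytes, had ratios of 1.10, 0.935 and 1.26. None of 9 measured adhesion genes was over 2-fold apart (median log2 ratio 0.02), where 5.67% of all genes were higher and 1.59% lower. Without the lymphatic cells 2 of 10 adhesion genes were over 2-fold higher (median 0.38). MHC class I had 1 of 17 genes over 2-fold higher, and the median log2 ratio was 0.16 beside 0.10 for all genes. H2-K1 was at 1681 and 1744 CPM, so the class I shift of the fibroblasts was not seen at this gene in endothelium.

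Mural cells were too few to carry more than a short account. Over 2-fold higher were 355 genes (5.23% of 6791) and over 2-fold lower 456 genes (6.71%), with a median log2 ratio of 0.00. The named genes that were lower in K/B.g7 rested on a few B.g7 cells and included genes of other cell types. Whether these barcodes were cells of other types, doublets or mural cells with released RNA was not tested. Msln and Upk3b, genes of mesothelium, were at 0 and 248 CPM (4 B.g7 cells) and at 1.98 and 483 CPM (7 B.g7 cells), and 1 B.g7 cell held all 158 UMIs of the melanocyte gene Dct. Fxyd3, Krt7, Krt19, Smpd3 and Tmem151a completed that direction. Of the named genes that were higher, Lyz2, Il1b, Cd52, Fcer1g, Wfdc17, Ctss and Tyrobp are leukocyte genes. The other was Nts, the peptide neurotensin, at 126 and 11.3 CPM, from 12 and 2 cells.

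The ratios of 2 contractile genes of mural cells turned within the Xist cells. Acta2 was at 7419 CPM in K/B.g7 and 5318 CPM in B.g7, a ratio of 1.40, and Tagln, the actin-binding transgelin, at 9294 and 5737 CPM, a ratio of 1.62. Within the Xist cells (104 and 78) the ratios were 0.681 and 0.751. MHC class II had 5 of 7 measured genes over 2-fold higher, beside 5.23% of all genes, with Cd74 at 744 and 302 CPM, a ratio of 2.46. Leukocyte markers in these cells were at 211 and 5.63 CPM in sum, with Ptprc, Laptm5 and Tyrobp at 0 in B.g7, and their part was not tested. Red cell markers were at 12645 and 105 CPM.

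Among leukocytes T cell genes were seen in a smaller share of K/B.g7 cells and macrophage genes in a larger share. The macrophage intervals overlapped at equal depth. At least 2 UMIs of macrophage markers were in 43.6% (39.6 to 47.6, 271 cells) of K/B.g7 and 30.5% (24.7 to 36.7, 74 cells) of B.g7 leukocytes. At least 2 UMIs of T cell markers were in 42.4% (264 cells) and 64.6% (157 cells). Markers of dendritic cells were in 17.0% and 11.5%, of B cells in 12.5% and 8.64%, and of NK or innate lymphoid cells in 41.0% and 51.0%. These classes overlap, as a cell may hold markers of more than 1 list. After thinning to 1000 UMIs the macrophage shares were 23% (19.6 to 26.6) and 18% (13.4 to 23.6), and the T cell shares 38.7% (34.7 to 42.7) and 56.3% (49.7 to 62.7). The thinned B cell shares were 4.56% and 5.04%, in the opposite order to the shares before thinning. The B cell list also holds Ebf1, which stromal cells express, at 89.2 CPM in K/B.g7 leukocytes and 525 CPM in K/B.g7 fibroblasts. Taken over all kept cells, leukocytes with macrophage genes were 2.91% of the K/B.g7 library and 1.28% of the B.g7 library. Leukocytes with T cell genes and under 2 UMIs of macrophage genes were 2.75% and 2.65%. The smaller T cell share among K/B.g7 leukocytes was thus not seen over all kept cells.

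Over all leukocytes 302 genes (5.24% of 5764) were over 2-fold higher in K/B.g7 and 158 genes (2.74%) over 2-fold lower. Fibroblast markers were at 5273 CPM in K/B.g7 leukocytes and 3196 CPM in B.g7 leukocytes. All 11 measured collagens and 19 of 21 measured proteoglycans and glycoproteins were over 2-fold higher, and of 112 genes that were higher at 50 CPM or more 49 had a level at least as high as in fibroblasts. Slpi, a secreted protease inhibitor (chr2:164354070-164389095), was at 5970.1 and 52.0 CPM, a ratio of 115 (90.0 to 149), from 111 and 18 cells, and 1 cell held 35.4% of its UMIs. Tagln and Acta2, smooth muscle genes, were also named, with 50.7% and 37.0% of their K/B.g7 UMIs in 1 cell. Their ratios were 28.6 and 15.4 over all leukocytes and 3.66 and 2.79 within the Xist leukocytes.

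Genes of inflammatory myeloid cells differed in both directions. Of 13 measured genes of the monocyte and neutrophil list 2 were over 2-fold higher and 4 over 2-fold lower, beside 5.24% and 2.74% of all genes. The median log2 ratio was -0.23. Without predicted doublets 5 of 11 were higher and none lower, with a median of 0.57, and the share over all genes there is not given. Il1b, the precursor of interleukin-1 beta, was at 3319 CPM in K/B.g7 and 1669 CPM in B.g7, a ratio of 1.99 (1.90 to 2.08), from 46.8% and 28.0% of the cells. Il1rn, its receptor antagonist, was at 589 and 198 CPM, a ratio of 2.97, and Ptgs2, the inducible cyclooxygenase, at 409.6 and 96.0 CPM, a ratio of 4.27. Cxcl2, Ccr2 and Plac8 of that list were at 1792 and 2051, 236 and 277, and 522 and 650.5 CPM, ratios of 0.874, 0.853 and 0.802. Among the cells with macrophage genes the ratios of Il1b, Il1rn and Ptgs2 were 1.48, 2.26 and 3.93. C1qa, a complement gene of tissue macrophages, had a ratio of 0.859 in those cells, and Cd74 of 0.986. Within the Xist leukocytes (364 and 164 cells) the ratios of Il1b, Il1rn and Ptgs2 were larger, at 4.34, 8.62 and 9.35. Cxcl3, a neutrophil attractant, was at 137 and 10.4 CPM over all leukocytes (21 and 6 cells). Cxcl13 was at 216 and 28.8 CPM (23 and 5 cells), and 1 cell held 86.1% of its B.g7 UMIs. Of the other named genes, Epcam and Lyz1 had ratios of 7.45 and 7.15.

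Genes of activated and cytotoxic lymphocytes were lower over all K/B.g7 leukocytes, and less so among the cells with T cell genes. Of 15 measured T helper and cytotoxic genes 6 were over 2-fold lower and none higher, beside 2.74% and 5.24% of all genes. The median log2 ratio was -0.49 beside 0.05 for all genes. Ifng, interferon-gamma, was at 119.8 CPM in K/B.g7 and 242 CPM in B.g7, a ratio of 0.496 (0.426 to 0.577). Gzma, a granzyme of cytotoxic cells, was at 142 and 456 CPM, a ratio of 0.312, and Ccl5 at 1912 and 4188 CPM, a ratio of 0.457. Among the cells with T cell genes and under 2 UMIs of macrophage genes (256 and 153), the ratios of Ifng, Gzma and Ccl5 were 0.888, 0.539 and 0.748. Ctla4, an inhibitory receptor of activated and regulatory T cells, had a ratio of 2.66 there, at 381 and 143 CPM. Within the Xist leukocytes the ratio of Ifng was 0.231 and that of Gzma 0.0641.

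Further genes lower in K/B.g7 leukocytes rested on few cells. The cytokines Csf2, Ccl1 and Il13 were at 18.0 and 131, 29.7 and 169.6, and 33.4 and 185 CPM, from 10 to 15 cells in each library. The neutrophil genes S100a8, S100a9 and Retnlg had ratios of 0.186, 0.213 and 0.0277, and in B.g7 they came from 7, 7 and 3 cells. Without predicted doublets the ratio of S100a8 was 7.37 and that of S100a9 was 1.48, so the direction of these genes rested on barcodes of high doublet score. Trdc, the constant segment of the gamma-delta T cell receptor, was at 18.3 and 89.6 CPM, from 12 and 23 cells. Selp, an adhesion receptor of platelets and endothelium, had 99.0% of its B.g7 UMIs in 1 cell.

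Proliferation genes were higher in K/B.g7 leukocytes, with a median log2 ratio of 0.53 beside 0.05 for all genes. Of 16 measured genes 4 were over 2-fold higher, beside 5.24% of all genes. Top2a, a topoisomerase of dividing cells, was at 64.5 and 30.4 CPM, a ratio of 2.12, and Birc5, survivin, at 58.1 and 24.0 CPM, a ratio of 2.42. All 6 Fc receptor genes, through which immune complexes act on myeloid cells, had a ratio above 1, and 1 was over 2-fold higher. Fcgr4 and Fcgr3 had ratios of 1.24 and 1.24 over all leukocytes and of 0.773 and 0.953 among the cells with macrophage genes. Immunoglobulin genes stood far apart but came from few cells. Igkc was at 6944 and 2274 CPM, and 1 B.g7 cell held 96.1% of the Ighm UMIs of its library. The MHC class II list had no gene over 2-fold apart in leukocytes, where 5.24% of all genes were higher and 2.74% lower. Its median log2 ratio was 0.42.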

How the data were processed

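Single cells of digested mitral valves were sequenced in droplets (10x Genomics 3′ kit), 1 library per genotype and age, per the labels' protocols. The authors deposited raw UMI counts, as whole numbers, for 31053 genes in each barcode. Cell Ranger 3.1.0 and the mm10 build are named in the submitters' processing notes. How cells were called, and with which annotation, is not given in the sources used here.

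Here, counts were summed per library and kind and scaled to CPM. Levels have exact Poisson intervals, ratios exact conditional binomial intervals and shares Clopper-Pearson intervals, all at 95%. A gene or list member counts as measured with at least 20 UMIs in both libraries together and 20 CPM in the higher one, and a count of 0 was set to a floor of 3 counts per library in a ratio. Doublets stayed in; the automatic Scrublet threshold marked 2 and 45 barcodes and was not used, and 695 (7.46%) and 266 (4.61%) barcodes of highest score were marked at 0.8% per 1000 barcodes for an alternative.

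Named genes are up to 12 per direction in fibroblasts and 8 in other kinds, of the largest ratio, with 50 CPM in the higher library and 20 UMIs in all. Genes of mitochondria, ribosomes, hemoglobin and immunoglobulins, Xist, Y-linked genes and unnamed models were left out. Outside fibroblasts a gene also needed a level at least that in fibroblasts. Up to 5 members per direction were named from each list. Counts of list members within part of a kind are given without the share over all genes there. Genes named for their level in part of a kind, or given beside these, were chosen after their values were seen. Reads kept per gene name rest on the authors' annotation, and positions are from GENCODE vM21. The members, the 27 gene lists and the 22 marker lists were chosen with earlier results of these data known. The calculations were tested on simulated data. Tools were Python 3.11.15, numpy 2.4.6, scipy 1.17.1, pandas 2.3.3, scanpy 1.11.5 and matplotlib 3.10.9.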

Additional observations from a re-analysis of the deposited data

Results flagged for a closer look

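Shares of cells went in opposite directions at 8 weeks and at another age, in 4 pairs of values, each from 1 library per genotype. The share of fibroblasts in K/B.g7 over that in B.g7 was 1.21 at 8 weeks and 0.952 at 3 weeks. The ratio of the endothelial shares was 0.276 at 8 weeks, against 1.38 at 3 weeks and 1.44 at 25 weeks. The ratio of the leukocyte shares was 1.59 at 8 weeks and 0.481 at 25 weeks. The differences between the ages were not tested.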

How the results depend on the processing

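No paired analysis was possible because each genotype had 1 library at 8 weeks. Leaving out a library leaves no comparison. Of the 28 recomputed share ratios 21 moved by less than their counting interval, and none of the 28 crossed 1. The Y-linked cells were not among these settings. Their leukocyte share was lower for the K/B.g7 library (5.30%) than for the B.g7 library (17.9%), the reverse of the order over all cells. With at most 5% mitochondrial UMIs the fibroblast ratio was 1.16. With a fibroblast threshold of 2% the ratios of fibroblasts, endothelium and mural cells were 1.08, 0.314 and 1.20. Within the Xist cells those of fibroblasts, endothelium and leukocytes were 1.10, 0.328 and 2.22.

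The counts of genes over 2-fold apart followed the minimum. With at least 50 UMIs and 50 CPM they were 91 higher and 42 lower in fibroblasts, 170 and 70 in endothelium, 117 and 158 in mural cells, and 124 and 70 in leukocytes. With no CPM minimum and at least 1 UMI in each library they were 1493 and 998, 2286 and 559, 1084 and 1237, and 1274 and 1328. With the mean over cells in place of the sum, 751 genes were higher in mural cells and 499 in leukocytes. With at most 5% mitochondrial UMIs 540 were higher in mural cells. Within the Xist leukocytes 526 were higher and 399 lower, and in fibroblasts with a Wif1 UMI 282 were higher. Settings chosen after seeing the data gave 275 lower genes in endothelium with lymphatic genes and 471 higher genes in leukocytes with macrophage genes. The number of genes measured in each of these settings is not given, so the counts cannot be read as shares. Of 290 recomputed list medians 269 stayed close, 19 moved and 2 turned: in mural cells within the Xist cells the myofibroblast median was -0.02 and the proliferation median 0.08. The cause was not tested. Depth limits mural cells (238 and 96) and leukocytes (622 and 243) most, and with 1 library per genotype no spread between mice is known.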
